A study of Homo sapiens with 6 samples.

Results

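The genes described here are the 10 that encode the D-type cyclins (CCND1, CCND2, CCND3), the kinases CDK4 and CDK6 that they activate, the INK4 inhibitors of these kinases (CDKN2A, CDKN2B, CDKN2C, CDKN2D) and the inhibitor p27 (CDKN1B). They were chosen by gene symbol from the 50868 genes of the deposited count tables, with earlier results of these data known. Each symbol had 1 row. RNA was sequenced from DU145, an established human prostate cancer cell line, in 3 libraries given a control siRNA (siCtrl, labelled RCC2 wild type) and 3 given an siRNA against RCC2 (siRCC2, labelled RCC2 knockdown). The labels name no time after transfection and no siRNA sequence, and nothing in them tells if replicate libraries stem from separate cultures. The p-values therefore rest on library-to-library spread alone, which may be technical.

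D-type cyclins are made in response to growth signals and bind CDK4 or CDK6. The active kinase phosphorylates the retinoblastoma protein RB and its relatives, which then let go of E2F transcription factors and allow entry into S phase. INK4 proteins bind CDK4 and CDK6 and keep the cyclin away, whereas p27 binds cyclin-CDK complexes and acts mainly on CDK2. DU145 is known to lack functional RB protein, a setting in which the INK4 protein p16, encoded by CDKN2A, is often abundant.

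Total counts ran from 17377191 to 19895431 per library, so 1 CPM (the usual unit that scales counts to a common library size) stands for 16.5 to 20.2 reads. RCC2, the targeted gene, had 3998, 3598 and 3702 counts in the siCtrl libraries, in the order of replicates 1 to 3 used throughout, and 980, 1117 and 1045 in siRCC2. It fell by 1.76 (log2, SE 0.07, edgeR adjusted p = 2.00e-05). The epithelial keratins KRT8, KRT18 and KRT19 stood at 462, 318 and 442 CPM on average in siCtrl. Summed levels of 5 markers each of fibroblasts, leukocytes and endothelium reached at most 15.5, 3.92 and 1.46 CPM in any library. The leukocyte marker CD3E and the fibroblast marker LUM had no counts, whereas COL1A1 fell from 12.5 to 9.22 CPM. In a principal component analysis, the second component held 16.4% of the variance and set siRCC2 replicate 1 (score 41.5) apart from replicates 2 (-13.3) and 3 (-35.2).

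Start site sequence is shown for CDK4 and CDKN2C because both hold the E-box CACGTG, the site known to be bound by MYC and related factors, in the 250 bases before a RefSeq start (GRCh38.p14). Capitals mark the E-box. It occurs in 6.34% of 35116 such windows of all genes. Of the 250 bases before the CDK4 start, 211 lie in annotated exons of any gene. The 3 copies before the CDK4 start lie at chr12:57752515-57752532, chr12:57752495-57752512 and chr12:57752400-57752417 on the minus strand, and with 6 bases on each side they read, 5′ to 3′:
CDK4, 216 bases before the start: agcggtCACGTGtgatag
CDK4, 196 bases before the start: acagatCACGTGgctgcc
CDK4, 101 bases before the start: ggcggtCACGTGcccaga

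CDKN2C has 3 RefSeq starts. The window before the first, chr1:50960495-50960744 on the plus strand, holds no annotated exon base and holds 1 E-box 220 bases before the start. The window before the third start, of which all 250 bases lie in annotated exons, holds another, at chr1:50970170-50970187:
CDKN2C, first start: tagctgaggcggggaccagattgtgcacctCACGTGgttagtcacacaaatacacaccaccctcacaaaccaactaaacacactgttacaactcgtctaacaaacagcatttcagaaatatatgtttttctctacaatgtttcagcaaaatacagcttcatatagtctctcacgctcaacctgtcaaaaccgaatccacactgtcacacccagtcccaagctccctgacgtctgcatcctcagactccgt
CDKN2C, 69 bases before the third start: aataatCACGTGtgaatc

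The same search covered 8 genes with a RefSeq entry, with CCND1 and CCND2 named only. No E-box was found before the starts of CCND3, CDK6, CDKN2A, CDKN2B, CDKN2D or CDKN1B. Of the other motifs searched on both strands, the E2F sites TTTCGCGC, TTTGGCGC and TTTCCCGC (2.32% of all windows), the AP-1 sites TGACTCA and TGAGTCA (4.20%), the cAMP response element TGACGTCA (1.65%) and the GLI site GACCACCCA (0.199%) had no match in these windows. The GC box GGGCGG, in 42.6% of all windows, was found before at least 1 start of each of the 8. These matches are letters only, and absence from a window says nothing about the factor.

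Knockdown libraries had less CCND1 and CDK4 RNA and more CCND3, CDKN2B, CDKN2C and CDKN1B RNA than control libraries. Of the 10 genes 9 had enough counts to be tested, and by edgeR's quasi-likelihood test, with p-values adjusted over the 16536 genes tested (Benjamini-Hochberg), 4 rose, 3 fell and 2 did not pass an adjusted p of 0.05. Of all tested genes 41.8% passed, 20.7% upward and 21.1% downward. The 2 groups did not overlap in 7 of the 9 genes, against 55.4% of all tested genes. The median log2 fold change of the 9 was 0.10, beside -0.02 over all tested genes.

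**Figure D1:**
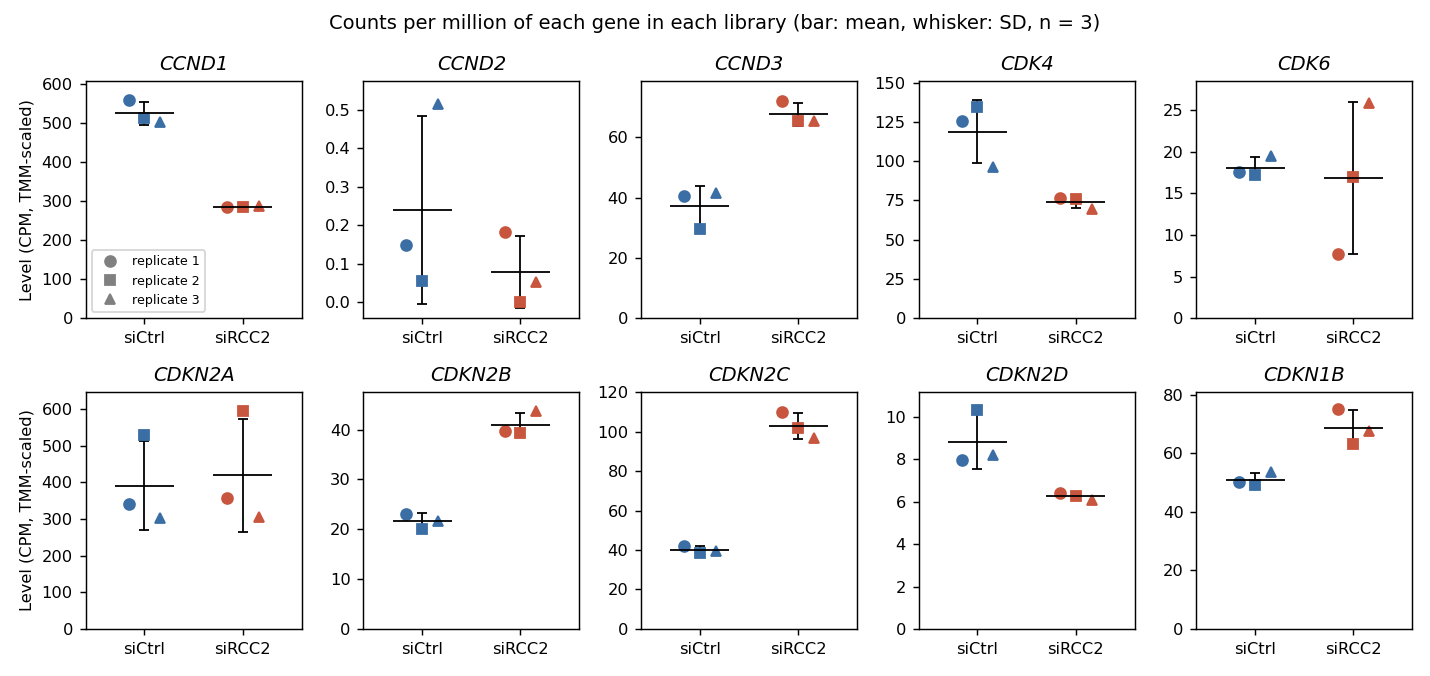
Level of each of the 10 genes in CPM (vertical axis, a separate scale for each gene) in the 3 siCtrl and 3 siRCC2 libraries, with replicate number as the symbol, the mean as a bar and the SD as a whisker. CCND1 and CDK4 lie lower and CCND3, CDKN2B, CDKN2C and CDKN1B higher in every siRCC2 library, while CDK6 and CDKN2A overlap.

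CCND1 (ENSG00000110092, GRCh38 chromosome 11, 69641087 to 69654474, plus strand) encodes cyclin D1 and had the highest mean level of the 10 in siCtrl. It was measured at 559, 511 and 503 CPM in siCtrl and at 285, 285 and 288 CPM in siRCC2. The siRCC2 libraries lay close together, and all were far below the lowest siCtrl library. The log2 fold change was -0.88 ± 0.06 (SE), or 0.545 of the control level (edgeR adjusted p = 0.000123).

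CCND3 (chromosome 6, 41934933 to 42050357, minus strand) encodes cyclin D3, a D-type cyclin best known from lymphoid cells. It was measured at 40.6, 29.7 and 41.5 CPM in siCtrl and at 72.1, 65.4 and 65.3 CPM in siRCC2. All siRCC2 libraries were higher, and the widest spread was in siCtrl, where replicate 2 was low. CCND3 rose 1.81-fold (log2 fold change 0.86 ± 0.14, edgeR adjusted p = 0.00272). CCND2 (chromosome 12, 4273772 to 4305350, plus strand), the third D-type cyclin gene, had 3, 1 and 10 counts in siCtrl and 3, 0 and 1 in siRCC2 and was not tested. A count of 0 in siRCC2 replicate 2 allows up to 0.155 CPM (3 counts, counting error only). In the fit that kept every gene with a read, CCND2 was tested and did not pass, and at these counts only a large difference could have been seen.

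The make-up of the D-type cyclin RNA pool shifted. Divided by exon length, CCND1 made up 94.3%, 95.4% and 93.5% of the summed level of the 3 cyclin genes in siCtrl and 82.6%, 84.0% and 84.1% in siRCC2. The groups did not overlap, and the share was 10.9 percentage points lower in siRCC2, from 94.4 ± 0.940% to 83.5 ± 0.849% (SD, n = 3; exact permutation test, two-sided, p = 0.1, the smallest that 3 against 3 libraries allow). The summed level went from 115 ± 6.66 to 70.8 ± 0.535 CPM per kb (exact permutation p = 0.1), so the gain in CCND3 was smaller than the loss of CCND1. The size of the shift in share depended on the length used, and with the longest transcript in place of all exons it was -18.5 points. The remaining share was nearly all CCND3, as CCND2 stood at no more than 0.0720 CPM per kb in any library.

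**Figure D2:**
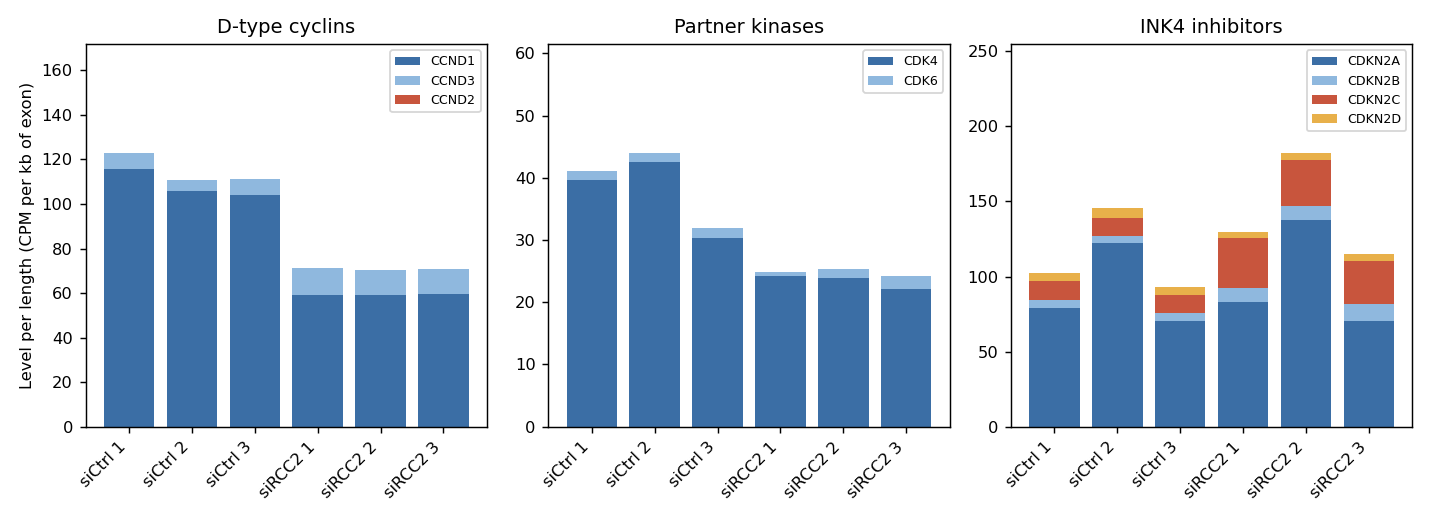
Level per length (CPM per kb of exon) of the D-type cyclin, partner kinase and INK4 genes stacked for each library, with a separate vertical scale for each panel. CCND1 makes up about 94.4% of the cyclin bars in siCtrl and 83.5% in siRCC2, and the CDKN2C block is taller throughout siRCC2 than in any control.

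CDK4 (chromosome 12, 57747727 to 57756013, minus strand) encodes the main partner kinase of cyclin D1 in epithelial cells. Its level was 126, 135 and 96.1 CPM in siCtrl and 76.8, 75.8 and 69.9 CPM in siRCC2. Replicate 3 was the lowest library of siCtrl and still above all of siRCC2. The log2 fold change of CDK4 was -0.68 ± 0.13, or 0.624 of the control level (edgeR adjusted p = 0.00573). MYC, known to bind E-boxes such as those printed above, had 3.03, 3.34 and 3.71 CPM in siCtrl and 8.04, 3.04 and 67.5 CPM in siRCC2 and did not pass (edgeR adjusted p = 0.0608). Any part of MYC in the CDK4 values was not tested.

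CDK6 (chromosome 7, 92604921 to 92836594, minus strand), the second partner kinase, had even levels in siCtrl (17.6, 17.1 and 19.5 CPM) and uneven ones in siRCC2 (7.68, 16.95 and 25.9 CPM). One siRCC2 library lay below, one beside and one above the controls. The ratio of the highest to the lowest library was 1.14 in siCtrl and 3.37 in siRCC2, the widest ratio in siRCC2 of the 9 tested genes. The log2 fold change was -0.10 ± 0.38 (edgeR adjusted p = 0.851), and it became 0.23 without siRCC2 replicate 1 and -0.55 without siRCC2 replicate 3, in both cases without passing.

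The order of the siRCC2 libraries in CDK6 was shared with many genes. Deviations of CDK6 from its group means correlated above 0.9 with those of 1685 of 10203 genes with at least 10 CPM (16.5%), against 0.725% to 4.12% for the other 8 tested genes. Another 1222 genes went the opposite way, with a correlation below -0.9, against 64 to 231 for the other 8. These correlations are over 6 libraries, and genes of 1 library share its composition and depth. For CDK6 the SD of log2 CPM was 0.10 in siCtrl and 0.86 in siRCC2. Its correlations therefore rest mainly on the 3 siRCC2 libraries, where high values of either sign come easily. None of the other 8 was spread so unevenly toward siRCC2, so their percentages are not a like baseline. The longest CDK6 transcript is 11612 bases with 39.5% GC. Tested genes with a value were put in 4 bins of nearly equal size. In the bin with the lowest GC content (27.8% to 42.5%), the median log2 ratio of siRCC2 replicate 3 over replicate 1 was 0.42, and in the bin with the highest it was -0.18. By length, the median ratio was 0.20 in the longest bin (5011 bases or more) and -0.12 in the shortest. Between siCtrl replicates 3 and 1 the medians by bin stayed between -0.05 and 0.04. With offsets for GC content or for length in the fit, the CDK6 log2 fold change was -0.06 and 0.04, and it passed under neither (edgeR adjusted p = 0.866 and 0.918). Any part of GC content or length in the uneven CDK6 levels was not tested.

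**Figure D3:**
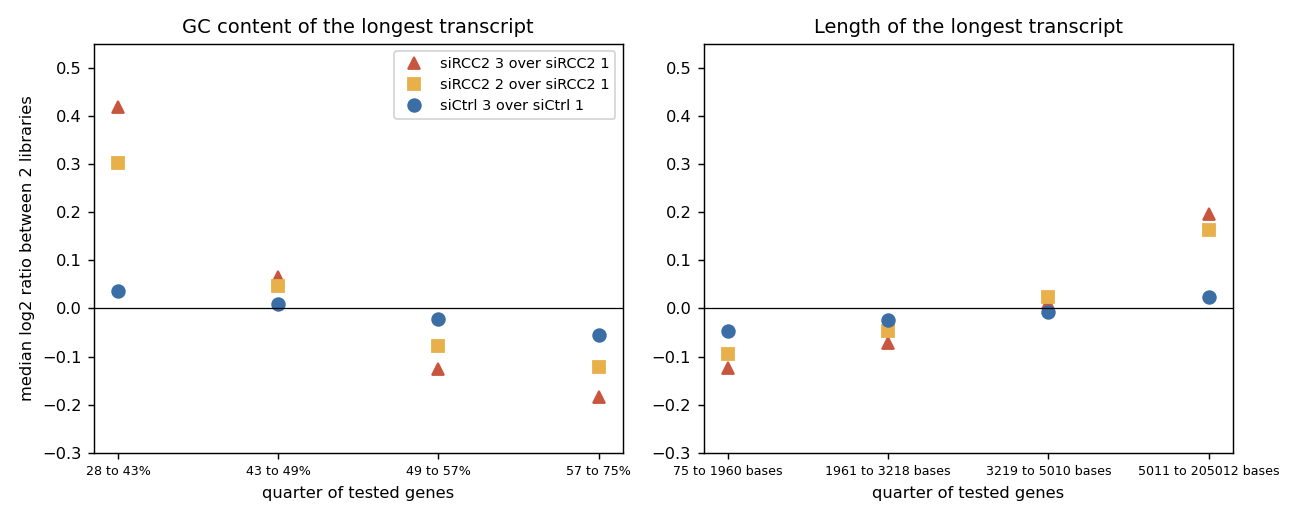
Median log2 ratio between 2 libraries of 1 group (vertical axis) in 4 bins of the tested genes by GC content (left) and by length (right) of the longest transcript. Between siRCC2 replicates 3 and 1 the medians run from 0.42 to -0.18 with rising GC content and from -0.12 to 0.20 with rising length, and between siCtrl replicates 3 and 1 they stay near 0.

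CDK4 made up most of the kinase pool in both groups. Per length, its share of CDK4 and CDK6 together was 96.5%, 96.8% and 95.0% in siCtrl and 97.5%, 94.5% and 91.3% in siRCC2. The shares overlapped (exact permutation p = 0.6), and the difference of -1.68 points became -0.10 without siRCC2 replicate 3, -3.21 without siRCC2 replicate 1 and -4.64 with no length correction. The summed level of both kinases was 39.0 ± 6.28 CPM per kb in siCtrl and 24.8 ± 0.580 in siRCC2 (exact permutation p = 0.1, the smallest possible).

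CDKN2A (chromosome 9, 21967753 to 21995301, minus strand) encodes p16 and, in another reading frame, ARF, which acts on p53 through MDM2. Counts per gene do not separate the RNAs of these proteins. The level was 341, 529 and 304 CPM in siCtrl and 358, 594 and 306 CPM in siRCC2. Replicate 2 was the highest library of both groups, and the groups overlapped. The log2 fold change was 0.10 ± 0.29 (edgeR adjusted p = 0.807) and ran from -0.22 to 0.38 with 1 library left out, so neither a rise nor a fall was shown.

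CDKN2B (chromosome 9, 22002903 to 22009363, minus strand), the neighbour of CDKN2A, encodes p15, an INK4 protein known as a target of TGF-beta. It stood at 23.1, 19.99 and 21.7 CPM in siCtrl and at 39.7, 39.4 and 43.7 CPM in siRCC2. Every siRCC2 library was well above every siCtrl library, and replicate 2 did not stand out as it did in CDKN2A. CDKN2B rose 1.90-fold (log2 fold change 0.92 ± 0.10, edgeR adjusted p = 0.000501).

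CDKN2C (chromosome 1, 50960745 to 50974633, plus strand) encodes p18 and had the smallest p of the 9 tested genes. Levels were 42.2, 38.4 and 39.3 CPM in siCtrl and 110, 102 and 97.0 CPM in siRCC2. The libraries of each group lay close together, with a wide gap between the groups. CDKN2C rose 2.58-fold (log2 fold change 1.37 ± 0.08, edgeR adjusted p = 6.90e-05).

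CDKN2D (chromosome 19, 10566462 to 10569059, minus strand), which encodes p19, the fourth INK4 protein, went the other way. It was measured at 7.99, 10.3 and 8.19 CPM in siCtrl and 6.41, 6.29 and 6.08 CPM in siRCC2. The groups did not overlap, and the siCtrl libraries were spread more widely than those of siRCC2. The log2 fold change of CDKN2D was -0.50 ± 0.14, or 0.708 of the control level (edgeR adjusted p = 0.0288). This call was lost without siCtrl replicate 2 (adjusted p = 0.0931), siCtrl replicate 3 (0.0532), siRCC2 replicate 2 (0.0908) or siRCC2 replicate 3 (0.0663), and was kept without either of the other libraries.

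Within the INK4 genes, the share of CDKN2C in the summed level per length was 12.4%, 7.94% and 12.7% in siCtrl and 25.5%, 16.9% and 25.5% in siRCC2. All siRCC2 libraries were higher, with means of 11.03 ± 2.68% and 22.6 ± 4.95% (SD, n = 3; exact permutation p = 0.1, the smallest possible). The difference of 11.6 points became 5.58 with the longest transcript as length. In both groups the lowest share was in replicate 2, where CDKN2A was highest. The summed INK4 level, 114 ± 28.1 CPM per kb in siCtrl and 142 ± 35.3 in siRCC2, overlapped between groups (exact permutation p = 0.4).

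CDKN1B (chromosome 12, 12715058 to 12722371, plus strand) encodes p27, which is known to be controlled largely through protein breakdown, a step not measured here. Its RNA was at 50.3, 49.2 and 53.5 CPM in siCtrl and at 75.1, 63.2 and 67.7 CPM in siRCC2. Each siRCC2 library was higher than each control. The rise was 1.35-fold (log2 fold change 0.43 ± 0.09, edgeR adjusted p = 0.00842), the smallest in size among the 7 that passed.

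**Figure D4:**
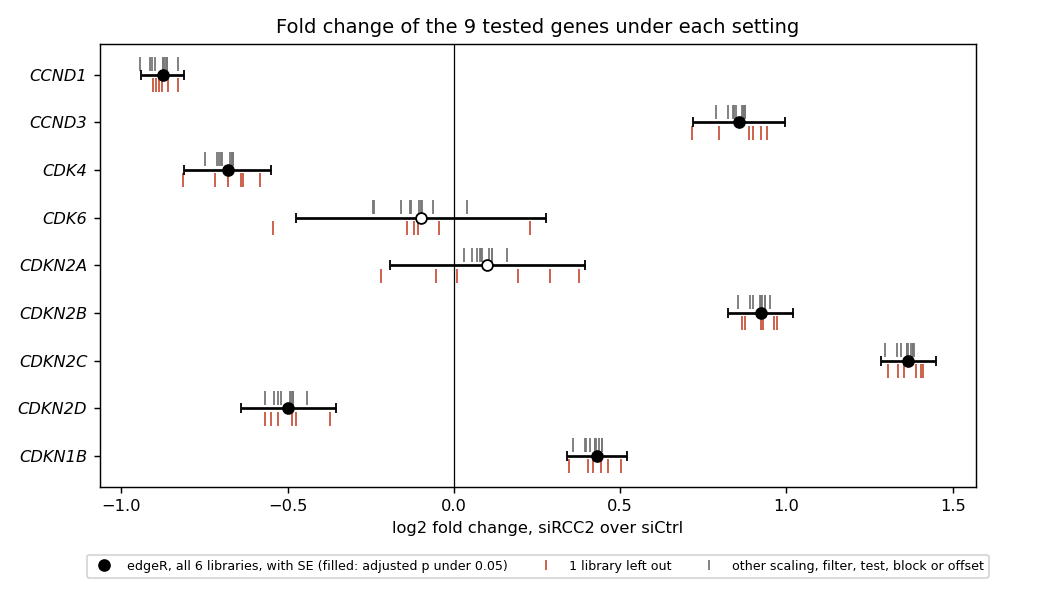
Log2 fold change of siRCC2 over siCtrl (horizontal axis) for the 9 tested genes, with the SE, beside the values with 1 library left out (red marks) and under other settings (grey marks). The marks of CCND1, CCND3, CDK4, CDKN2B, CDKN2C, CDKN2D and CDKN1B stay on 1 side of 0, and those of CDK6 and CDKN2A fall on both sides.

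Compared with each other per kb of exon, the genes ranked in siCtrl as CCND1 (109 ± 6.23 CPM per kb), CDKN2A (90.4 ± 27.9), CDK4 (37.5 ± 6.38), CDKN1B (18.1 ± 0.793), CDKN2C (12.04 ± 0.600), CCND3 (6.42 ± 1.13), CDKN2D (5.88 ± 0.869), CDKN2B (5.32 ± 0.386), CDK6 (1.48 ± 0.103) and CCND2 (0.0334 ± 0.0340). Neighbours whose libraries overlapped were CCND1 and CDKN2A, CCND3 and CDKN2D, and CDKN2D and CDKN2B. In siRCC2, CDKN2A (96.9 ± 35.5) stood above CCND1 (59.2 ± 0.348), and CDKN2C (31.0 ± 1.95) stood above CDKN1B (24.4 ± 2.14) and CDK4 (23.4 ± 1.19), which were the only overlapping neighbours there. Length matters for CDKN2A, whose exons cover 4329 bases while its longest transcript has 1283, and by the latter length it ranked above CCND1 in siCtrl too (305 against 122 CPM per kb). CCND3 likewise moved above CDKN2C by that length (15.6 against 13.8 CPM per kb in siCtrl), with 5802 exon bases and a longest transcript of 2394.

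Some of these loci overlap others. CCND1 shares 497 exon bases with LTO1 on the opposite strand, CDK4 shares 1369 with TSPAN31 and CDKN2A shares 341 with CDKN2B-AS1, an antisense RNA. Whether strand was kept is not given in the sources used here, so reads from these bases cannot be told apart. The partners had far fewer counts, with 14.5 CPM for LTO1, 1.10 for TSPAN31 and 1.20 for CDKN2B-AS1 on average in siCtrl, and none of them passed. MARCHF9, whose locus overlaps that of CDK4 without a shared exon base, fell by 2.49 on the log2 scale. CDKN2A and CDKN2B share 2.51% of the 50-base stretches of the longest CDKN2A transcript.

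The siRNA sequence is not given, so match-driven effects cannot be told apart from loss of RCC2. A 6-base stretch, TCTGGA, that an earlier search of these same data had linked to lower values was counted in 3′ UTRs, and it was present in 6 of the 9 tested genes, against 45.6% of 12907 tested genes. CCND1 (2 copies) and CDK4 (1) hold it and fell, CDKN2B (2) and CCND3 (1) hold it and rose, CDK6 (4) and CDKN2A (1) hold it and did not pass, and CDKN2C, CDKN2D and CDKN1B hold none. The median log2 fold change was -0.12 in tested genes with the stretch and 0.04 in those without. As the stretch was picked from these data for lower values, this difference adds no evidence. Presence was counted without regard to 3′ UTR length. That length was 591 (CDKN2A) to 10219 bases (CDK6) in the 6 with the stretch and 363 (CDKN2C) to 1344 (CDKN1B) in the others. Any part of TCTGGA in the changes of the 9 genes was not tested.

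Other genes of the pathway changed in both directions. Around the 10, 105 pathway genes were tested: 29 rose, 29 fell and 47 failed to pass, with a median log2 fold change of 0.01. Over all tested genes 20.7% rose and 21.1% fell, so both shares were higher among these 105. The lists were chosen with earlier results of these data known, so nothing particular to them is read from this. In the RB family, the direct substrates of CDK4 and CDK6, RB1 fell from 30.0, 27.8 and 28.8 CPM in siCtrl to 6.35, 9.02 and 12.5 CPM in siRCC2 (log2 fold change -1.63 ± 0.23, edgeR adjusted p = 0.00145). RBL2, which encodes the relative p130, fell by 0.53 with a standard error of 0.14, and RBL1 did not pass. Within siRCC2, RB1 had the library order of CDK6. Of 10 E2F and DP factors, only some of which bind RB or its relatives, 3 rose and 5 fell, with E2F2 (-1.27 ± 0.09) and TFDP2 (-0.46 ± 0.07) lower and E2F6 (0.99 ± 0.09), a family member that RB does not bind, higher.

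Downstream, 22 E2F target genes were tested, of which 4 rose and 4 fell and 14 stayed above the threshold, with MYBL2 (-0.83 ± 0.09) lower and TYMS (0.37 ± 0.06) higher. Of all tested genes 41.8% passed, and nothing particular to these 22 is read from their count. Of 7 later cyclins and CDKs 3 rose and 0 fell. Both E-type cyclin genes were among the 3, CCNE1 with 7.05, 8.51 and 8.14 CPM in siCtrl and 15.2, 12.6 and 13.9 in siRCC2 (0.81 ± 0.13) and CCNE2 (0.74 ± 0.17). The third was CCNB2 (0.52 ± 0.07). CCNE1 and CCNE2 are also on the E2F target list and are counted among the 4 that rose there. Of 8 proliferation markers 1 passed, TPX2 (0.32 ± 0.06), and their summed level was 1572 to 1805 CPM in siCtrl and 1568 to 1712 in siRCC2. That sum includes MKI67, which ran from 96.8 to 294 CPM within siCtrl and from 98.4 to 275 within siRCC2. TOP2A averaged 424 CPM in siCtrl and 277 in siRCC2 without overlap, but did not pass (-0.62 ± 0.26, edgeR adjusted p = 0.0990).

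**Figure D5:**
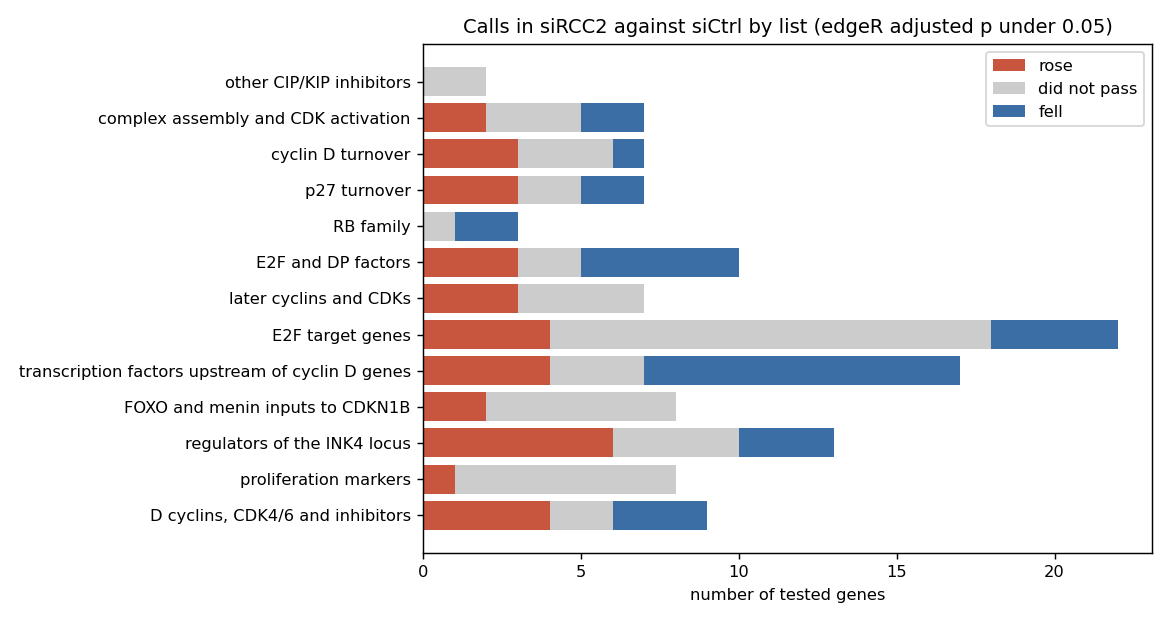
Number of tested genes that rose, fell or did not pass in siRCC2 against siCtrl, by list (horizontal axis: genes; edgeR adjusted p under 0.05). The transcription factors upstream of cyclin D genes include 10 that fell and 4 that rose, and 7 of the 8 proliferation markers did not pass. Over all tested genes 20.7% rose and 21.1% fell.

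Upstream, 10 of 17 transcription factors known to act on cyclin D genes fell, 4 rose and 3 did not pass, with a median of -0.39. Over all tested genes 21.1% fell and 20.7% rose, with a median of -0.02. The list was chosen with earlier results of these data known. EGR1 fell (-1.64 ± 0.06), while JUN (1.25 ± 0.07) and STAT3 (1.02 ± 0.06) rose. Of 13 regulators of the INK4 locus 6 rose and 3 fell, with the repressor gene ZBTB7A (0.73 ± 0.09) and ID1 (0.33 ± 0.07) higher and the Polycomb subunit RING1 (-0.42 ± 0.09) lower. Of 8 genes that feed into CDKN1B transcription 2 rose, AKT1 (0.66 ± 0.09) and FOXO4 (0.81 ± 0.13), and 0 fell.

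Genes that act on the proteins themselves were also mixed, and their counts stand beside 41.8% called over all tested genes. In cyclin D turnover, 3 of 7 tested genes rose and 1 fell. FBXW8, an F-box protein described as a cyclin D1 ligase subunit, fell (-1.29 ± 0.10), and the deubiquitinase gene USP22 (0.35 ± 0.06) and AMBRA1, which directs cyclin D to breakdown (0.27 ± 0.08), rose. In p27 turnover, 3 of 7 rose and 2 fell. Both subunits of the KPC ligase passed, with RNF123 lower (-0.41 ± 0.07) and UBAC1 higher (0.44 ± 0.09), and SKP1 rose (0.40 ± 0.09). Of 7 genes of complex assembly and CDK activation 2 rose, the chaperone genes HSP90AB1 (0.48 ± 0.07) and HSP90AA1 (0.72 ± 0.15), and 2 fell, among them CCNH, the cyclin of the CDK-activating kinase (-0.60 ± 0.13). The other p27-like inhibitors, CDKN1A (-0.14 ± 0.10, edgeR adjusted p = 0.319) and CDKN1C (-0.48 ± 0.19, adjusted p = 0.0800), did not pass.

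By the correlation of log2 CPM over the 6 libraries, the genes most like CDKN2C, the rising gene with the smallest p, were MAPRE1 (log2 fold change 0.97), PCNX3 (1.00) and TM4SF1 (1.33), each with r = 1.00 after rounding. Those most like CCND1, the falling gene with the smallest p, were SENP2 (-0.70, r = 0.999), ACOX3 (-0.39, r = 0.999) and PRR36 (-1.41, r = 0.998). Such likeness is common where groups separate: 1453 of 10203 genes had r above 0.95 with CDKN2C and 1130 with CCND1.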

How the data were processed

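RNA from 6 libraries of DU145 cells was sequenced, and sample titles gave the groups and replicate numbers. The authors deposited 1 table of whole-number counts per gene for each library, with gene names and loci. Per the submitters' processing notes, Bowtie2, RSEM and DESeq2 were used with build GRCh38; versions, and whether RSEM estimates were rounded: not given in the sources used here. With RSEM, reads that fit several genes are divided among them.

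The tests used edgeR 4.0.16 under R 4.3.3 (filterByExpr, TMM scaling, quasi-likelihood F-test, Benjamini-Hochberg adjustment over all tested genes, threshold 0.05), checked on simulated data. As SE, the size of the log2 fold change over √F is given. CPM used TMM-scaled library sizes. Levels per kb divide CPM by the union of exons in GENCODE release 29, which holds the 10 loci at the same coordinates. Shares were compared by an exact permutation test over libraries. No library repeated another: within groups, chi-square over its degrees of freedom was 10.2 to 34.1. Alternatives were other scalings, DESeq2 1.42.0, limma-voom (limma 3.58.1), filters, a replicate block, a threshold of 0.01, other lengths and leaving out each library; GC and length offsets were added after the data were seen. The members and lists were chosen with earlier results of these data known. The text names the 10 genes, RCC2, up to 3 genes of each list with the smallest p, overlapping loci and, for 2 genes, the 3 most correlated ones. FOXO4, CCNE2, HSP90AA1, RBL1, RBL2 and TOP2A are within the 3 of their lists but were chosen after their values were seen. Other genes named (MYC, MKI67, markers and those in small counts) were also chosen after their values were seen. Promoter windows are from RefSeq (8 of the 10 genes matched) and figures were made with matplotlib 3.10.9.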

Additional observations from a re-analysis of the deposited data

How the results depend on the processing

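Of 144 values of the 9 tested genes under 16 alternatives, 139 kept their side of the threshold and 5 lost it, all of CDKN2D, and no gene that passed changed direction. CDKN2D was lost in the 4 leave-one-out fits named above and with a block for replicate number (-0.49, adjusted p = 0.0531). Other adjusted p-values with 1 library left out reached at most 0.00232 for CCND1, 0.0116 for CCND3, 0.0257 for CDK4, 0.00431 for CDKN2B, 0.00126 for CDKN2C and 0.0387 for CDKN1B. With the block, 6295 genes and 6 of the 10 passed. The labels do not say if same-numbered libraries are paired. Their deviations correlated weakly (0.06, -0.04 and 0.10 for numbers 1 to 3). The last was the highest of all pairs, whereas siCtrl replicate 2 correlated best with siRCC2 replicate 1 (0.06), so these values do not settle the pairing. With the block the SE was lower for CDKN2A (0.07 in place of 0.29), CDK4, CCND3, CDK6 and CDKN2C and higher for the other tested genes. CDKN2A still did not pass. With a threshold of 0.01, which is not among the 16, 4117 genes and 6 of the 10 passed, CDKN2D again being lost. The CCND1 share changed by -18.5 points with the longest transcript as length and by -12.5 with no length correction; the CDK4 share changed by -4.64 points with no length correction, and the CDKN2C share by 5.58 with the longest transcript, in place of -10.9, -1.68 and 11.6. Total counts alone moved the share of called genes that rose from 49.5% to 42.8%.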

Other observations

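MKI67, the gene of a widely used proliferation marker, was high in 1 library of each group (294 CPM in siCtrl replicate 1 and 275 CPM in siRCC2 replicate 2) and between 96.8 and 138 CPM in the other four. It was chosen after its values were seen.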
